A study of Mus musculus with 12 samples.

Results

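Nodal, Cripto and Lefty signalling was described through 9 genes: the ligand gene Nodal, the coreceptor gene Tdgf1 (the gene for CRIPTO), the inhibitor genes Lefty1 and Lefty2, the receptor genes Acvr1b and Acvr2b, the signal transducer genes Smad2 and Smad3, and Foxh1, which encodes their DNA-binding partner. The genes were chosen by name from the pathway, and each of the 9 symbols matched 1 of the 55487 genes of the deposited table. RNA had been sequenced from male germ cells of mouse testis (gonocytes, the germ cells that precede spermatogonia), isolated from Mvh-Venus transgenic mice, which carry a fluorescent reporter of the germ line. There were 12 libraries, 3 at each of 4 stages: E13.5 and E16.5 in fetal life, P0 (birth) and P3 (3 days after it). The titles and source names call all 12 samples WT, whereas the genotype tag reads Morc1 (+/-) at E13.5 and P0 and Morc1 (-/-) at E16.5 and P3. Stage and genotype tag therefore change together in each consecutive comparison and cannot be told apart there, while P0 against E13.5 and P3 against E16.5 lie within 1 tag. Libraries are named by stage and by the number 1, 3 or 4 of their column. Nothing says whether the libraries of a stage came from separate animals or litters, so the p-values measure only the spread between these libraries, which may be technical.

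NODAL is a secreted ligand of the TGF-beta family. It binds activin receptors, with ACVR2B among the type II and ACVR1B among the type I receptors, and needs a membrane-anchored coreceptor such as CRIPTO. The activated receptor phosphorylates SMAD2 and SMAD3, which enter the nucleus with SMAD4 and act at sites bound by FOXH1. Among the targets are Nodal itself and the Lefty genes, whose secreted products block NODAL, so the pathway carries both positive and negative feedback. In the fetal testis the germ cells are known to use this pathway for a short time after the sex of the gonad is set, while they still express pluripotency genes.

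Recovered reads numbered 40946616 to 51533747 per library. A value is called a normalized count: reads of a gene divided by 1 size factor per library, as the authors deposited it. The size factors were 1.94 ± 0.118 at P0 and between 0.939 and 1.13 on average at the other stages (SD, n = 3), so that values at P0 hang on the scaling more than the others. Morc1 ranged from 1621 to 1830 normalized counts at E13.5, from 28328 to 32917 at E16.5, from 7280 to 7708 at P0 and from 10584 to 11129 at P3, and was thus not lower in the libraries labelled Morc1 (-/-); which part of the gene was deleted is not given, so this does not check the tag. Summed normalized counts of 5 germ cell markers (Ddx4, Dazl, Mael, Dnd1 and Sycp3) were 218436 to 252865 at E13.5, E16.5 and P3 and 128112 to 135839 at P0. These sums hide opposite changes of single markers. At E16.5 against E13.5 Dazl and Ddx4 fell, by 3.88-fold and 1.19-fold. Mael, Dnd1 and Sycp3 rose there, by 5.30-fold, 2.02-fold and 1.90-fold. At P0 against E16.5 Dnd1, Ddx4 and Mael fell, by 17.9-fold, 2.14-fold and 1.69-fold, and Dazl rose by 1.65-fold. Sums of 5 Sertoli cell markers were 650 to 970 at E13.5, 874 to 1672 at E16.5, 1971 to 3648 at P0 and 732 to 1238 at P3. Sums of 5 Leydig cell markers were 571 to 723 at E13.5, 608 to 7681 at E16.5, 1078 to 6106 at P0 and 179 to 267 at P3, with E16.5 library 4 and P0 library 1 the highest. Of the defining markers, the Leydig cell hormone gene Insl3 and the macrophage gene Adgre1 were at 0 in all 3 P3 libraries and the endothelial gene Emcn at 0 in all 3 E13.5 libraries. The 5 peritubular and mesenchymal markers summed to 125 to 155 at E13.5 and 1202 to 2463 at the later stages, the 4 macrophage markers to 16.8 to 31.7 and 111 to 340, and the 4 red blood cell markers to 66.3 to 382 and 287 to 2388. The 4 endothelial markers summed to 4343 to 5085 at E13.5 and 329 to 862 later, a list that includes Pecam1, which fetal germ cells also express. Pecam1 alone held 4326 to 5074 at E13.5 and so made up most of that sum. The other 3 went the other way and were lowest at E13.5. Cdh5, Kdr and Emcn had means of 9.92, 2.84 and 0 at E13.5 and of 29.8, 38.5 and 46.1 at E16.5.

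At E13.5 the ligand, the coreceptor, both inhibitors and the DNA-binding partner were at their highest, and at E16.5 each had fallen by between 9.66-fold (Tdgf1) and 145-fold (Lefty1). The receptor Acvr2b and the transducers Smad2 and Smad3 also fell, but by 1.73-fold to 5.97-fold, and by P3 they had risen again. Nodal, Tdgf1, Lefty1 and Lefty2 had not: at P3 they stood between 66.9-fold and 2362-fold below E13.5. Lefty2 departed from Lefty1 at birth, when Lefty2 rose and Lefty1 fell.

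**Figure D1:**
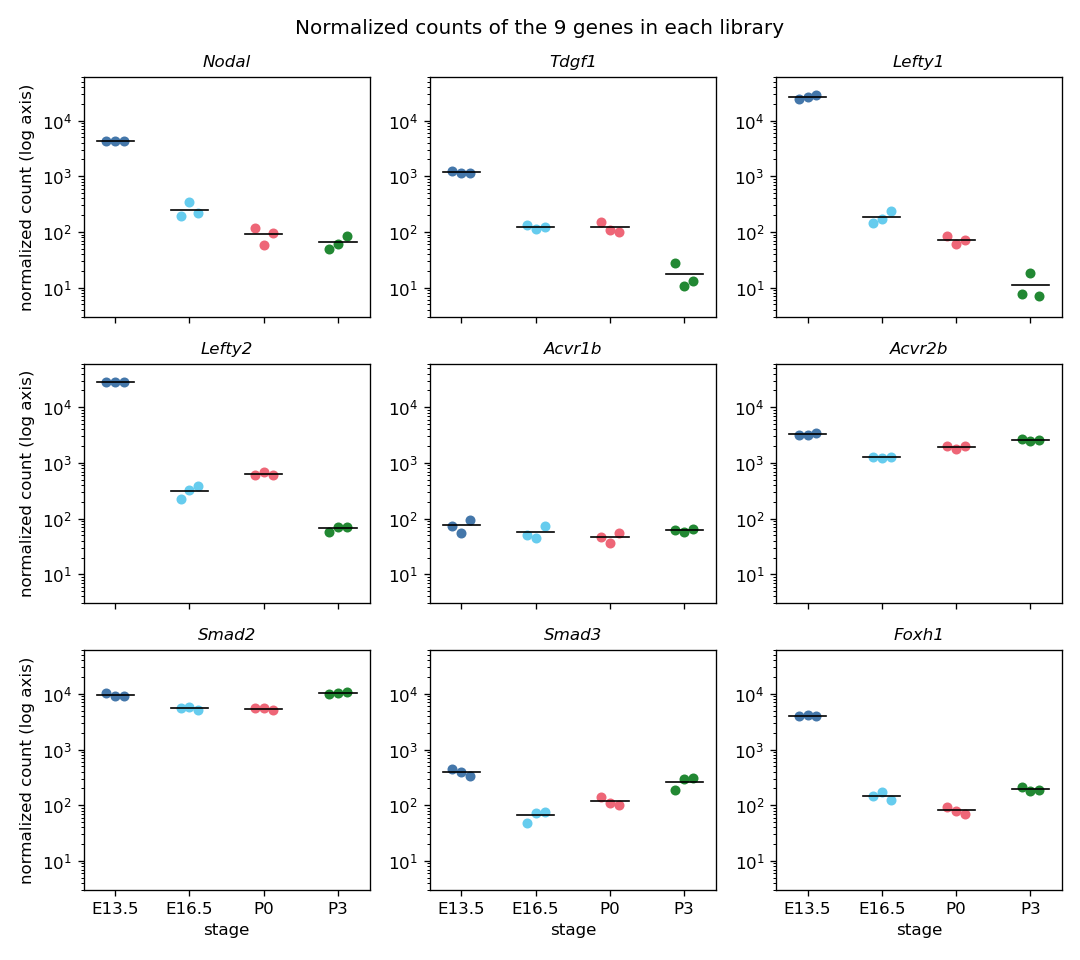
Normalized counts of the 9 genes in each library (points) on a log axis, with the mean of 3 libraries at each stage (bars). Nodal, Tdgf1, Lefty1, Lefty2 and Foxh1 lie far higher at E13.5 than at any later stage, while Acvr1b stays between 37.0 and 95.7 in all 12 libraries.

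Nodal (ENSMUSG00000037171) lies on the plus strand of chromosome 10 at 61417972 to 61425338 in GRCm38. Its levels at E13.5 were 4299, 4237 and 4309 normalized counts in libraries 1, 3 and 4. They were 194, 341 and 217 at E16.5, 116, 58.1 and 97.5 at P0, and 48.5, 59.9 and 86.0 at P3. Libraries of E13.5 thus lay close together and above all later ones, the E16.5 libraries did not overlap with the P0 libraries, and P0 and P3 overlapped. On the log2(normalized count + 1) scale, the difference was −4.13 ± 0.25 (SE) for E16.5 against E13.5 (limma, adjusted p = 1.7e-10) and −1.47 ± 0.25 for P0 against E16.5 (adjusted p = 9.93e-05). For P3 against P0 it was −0.46 ± 0.25, which did not pass (limma, adjusted p = 0.112). The fall passed without P0 library 3 (−0.75, adjusted p = 0.012) or without P3 library 4 (−0.68, adjusted p = 0.0307). It also passed under each other scaling tried: TMM factors (−0.63, adjusted p = 0.0353), median-of-ratios factors (−0.89, adjusted p = 0.00394) and equal library totals (−1.29, adjusted p = 0.000282). In order of level the stages were E13.5, E16.5, P0 and P3, of which the P0 to P3 difference did not pass with the deposited scaling and passed with the other scalings.

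Tdgf1 (ENSMUSG00000032494; chromosome 9, 110939603 to 110946158, minus strand) stood at 1260, 1167 and 1160 normalized counts at E13.5. At E16.5 the libraries held 134, 114 and 121, and at P0 152, 109 and 99.9, so these stages overlapped. At P3 Tdgf1 was down to 28.1, 10.8 and 13.2 normalized counts, or 29, 11 and 13 reads. The coreceptor therefore fell in separate steps, by 9.66-fold before E16.5 (log2 difference −3.27 ± 0.27 SE) and by 7.05-fold between P0 and P3 (−2.82 ± 0.27 SE; limma, adjusted p = 9.26e-09 and 7.89e-08). Between E16.5 and P0 the log2 difference was −0.05 ± 0.27 with the deposited scaling (limma, adjusted p = 0.882). This step passed under none of the scalings tried, but its size and direction hung on the scaling. Of the 50-base stretches of the gene's longest protein-coding transcript, 12.53% also occur in the pseudogene Tdgf1-ps1. That pseudogene held at most 6 reads in any library, as did Tdgf1-ps2, but how the authors counted reads that match several genes is not given.

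The stretches before the start sites of these genes are shown because Nodal and Tdgf1 fell together before E16.5 while Smad3 fell and then rose. Each is the 250 bases before the RefSeq start on GRCm38.p6, 5′ to 3′ along the gene, with the 5-base SMAD motif in capitals where it occurs. The windows are chr10:61417722-61417971 on the plus strand for Nodal, chr9:110946159-110946408 on the minus strand for Tdgf1 and chr9:63757995-63758244 on the minus strand for Smad3.
Nodal: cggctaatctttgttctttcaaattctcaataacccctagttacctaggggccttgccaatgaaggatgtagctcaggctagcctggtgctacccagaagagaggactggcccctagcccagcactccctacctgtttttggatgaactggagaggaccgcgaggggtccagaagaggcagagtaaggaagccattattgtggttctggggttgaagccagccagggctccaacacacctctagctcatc
Tdgf1: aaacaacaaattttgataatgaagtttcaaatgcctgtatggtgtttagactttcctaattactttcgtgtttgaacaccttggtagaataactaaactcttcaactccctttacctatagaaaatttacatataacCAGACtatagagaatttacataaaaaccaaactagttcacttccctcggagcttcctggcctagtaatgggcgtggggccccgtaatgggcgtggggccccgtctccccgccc
Smad3: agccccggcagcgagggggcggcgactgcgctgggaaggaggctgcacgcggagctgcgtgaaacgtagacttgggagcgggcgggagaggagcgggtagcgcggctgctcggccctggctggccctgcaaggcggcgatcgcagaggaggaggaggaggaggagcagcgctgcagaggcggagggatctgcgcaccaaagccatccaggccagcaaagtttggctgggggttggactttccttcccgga

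The RefSeq promoter table had entries for 5 of the 9 genes, namely Nodal, Tdgf1, Acvr1b, Acvr2b and Smad3. The Nodal window had a GC content of 53.2% and 3 CpG dinucleotides, and the Tdgf1 window 42% and 7, against a median of 52.4% and 6 CpG over all 32851 promoter windows of the same length. The Smad3 window was richer, with 69.2% GC and 22 CpG, as were those of Acvr1b (78.8% and 42) and Acvr2b (72.8% and 24), all above the upper quartiles of 61.2% and 16. A search of both strands for the FOXH1 motif (AATNCACA or its reverse complement TGTGNATT), the POU octamer (ATTTGCAT or ATGCAAAT) and a TATA box (TATAAA or TTTATA) found none in the 5 windows. Of all windows, 3.18%, 1.6% and 12.4% held these motifs. The SMAD motif (CAGAC or GTCTG) occurred once before Tdgf1, at bases −113 to −109 counted from the start, and once before Acvr2b, at −233 to −229, and in 42.2% of all windows. Known FOXH1-bound enhancers of Nodal lie outside such a window, in an intron and further upstream. These matches describe letters only.

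Lefty1 (ENSMUSG00000038793; chromosome 1, 180935022 to 180938400, plus strand) and Lefty2 (ENSMUSG00000066652; 180893108 to 180899103, plus strand) encode secreted antagonists of NODAL. The genes are neighbours, with Lefty2 first and 35918 bases between them. Of the 50-base stretches of each gene's longest protein-coding transcript, 17.89% of those of Lefty1 occur in Lefty2 and 11.59% of those of Lefty2 in Lefty1, and the others do not. The read length and the authors' treatment of reads that match both are not given in the sources used here, and the values of both genes are uncertain to that extent.

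Lefty1 was at 24378, 26551 and 28328 normalized counts at E13.5 in libraries 1, 3 and 4, then at 144, 168 and 242 at E16.5, 83.0, 61.4 and 72.9 at P0, and 7.75, 18.7 and 7.09 at P3. No pair of stages overlapped. The gene fell at each step, by 145-fold, 2.49-fold and 6.53-fold in turn, with log2 differences of −7.18 ± 0.27, −1.32 ± 0.27 and −2.71 ± 0.27 (SE; limma, adjusted p = 3.66e-13, 0.000511 and 1.16e-07). The P3 values rest on 8, 19 and 7 reads. Among the 9 genes this was the widest range, with a log2 difference of −11.21 ± 0.27 for P3 against E13.5 (limma, adjusted p = 3.92e-15).

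Lefty2 began at a like height, 28237, 28478 and 28828 normalized counts at E13.5, and was at 227, 323 and 385 at E16.5. At P0 it stood at 605, 700 and 617, above every E16.5 library, and it dropped to 58.1, 71.7 and 71.9 at P3, below all others. It fell by 93.4-fold before E16.5 (log2 difference −6.55 ± 0.15), rose by 1.07 ± 0.15 in log2 units to P0 and fell by 9.43-fold to P3 (−3.24 ± 0.15; SE; limma, adjusted p = 1.71e-15, 1.06e-05 and 6.61e-12). The rise at P0 was between 0.86 and 1.24 in log2 units with any 1 library left out, and 1.73 with library totals set equal. Over the same step 27.6% of all genes tested were higher. Of the Sertoli cell markers 4 of the 4 tested were higher, with sums of 874 to 1672 at E16.5 and 1971 to 3648 at P0. Of the 4 tested Leydig cell markers 0 were higher and 0 lower in limma, by the adjusted or the unadjusted p, and their sums overlapped (608 to 7681 and 1078 to 6106). Of the 5 peritubular and mesenchymal markers 2 were higher and 0 lower (sums 1202 to 1564, then 2353 to 2463). Of the 4 endothelial markers 2 were higher and 0 lower (sums 329 to 472, then 700 to 862). Of the 3 tested macrophage markers and the 3 tested red blood cell markers 0 were higher and 0 lower. The part of these cells in the Lefty2 level was not tested.

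**Figure D2:**
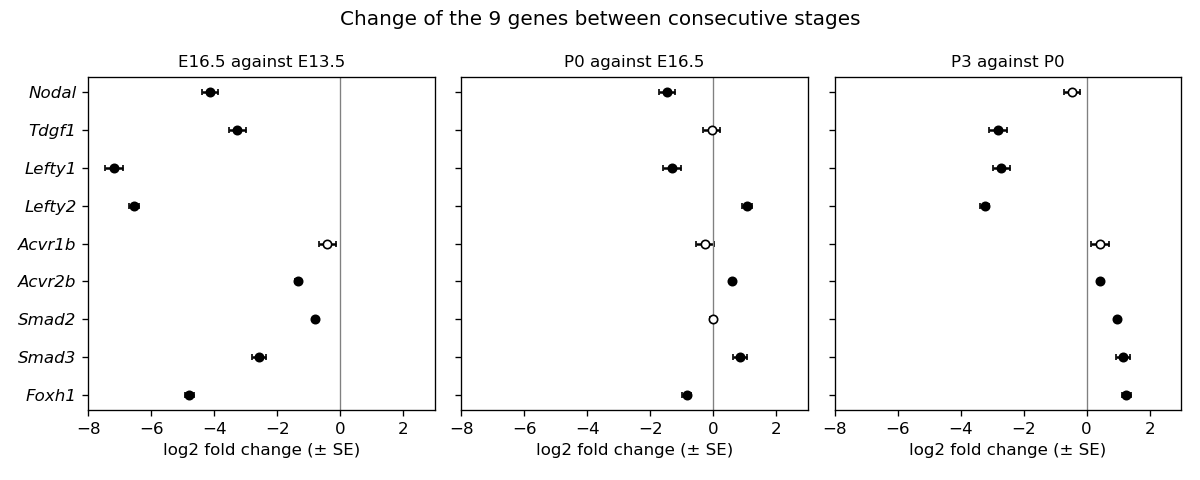
Log2 fold change of the 9 genes between consecutive stages, with its standard error (bars); filled points passed an adjusted p of 0.05 in limma and open points did not. From E13.5 to E16.5 all points lie below 0 and that of Acvr1b alone is open, and in the later steps Lefty2 and Lefty1 differ in direction only from E16.5 to P0.

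Foxh1 (ENSMUSG00000033837; chromosome 15, 76668225 to 76669948, minus strand), the forkhead factor that brings SMAD2 and SMAD3 to DNA, had a course of its own. It held 3930, 4142 and 4057 normalized counts at E13.5, 146, 170 and 123 at E16.5, 91.9, 79.9 and 70.5 at P0, and 211, 183 and 185 at P3, with no overlap between any stages. Foxh1 fell by 27.7-fold and then by 1.80-fold, and rose by 2.38-fold from P0 to P3 (log2 differences −4.79, −0.84 and 1.25, each ± 0.15 SE; limma, adjusted p = 2.83e-14, 9.27e-05 and 6.98e-07). The fall at P0 did not pass with library totals set equal (−0.19, adjusted p = 0.219). At P3 it was still 20.9-fold below E13.5. P3 exceeded E16.5 by 0.41 ± 0.15 in log2 units (limma, adjusted p = 0.02), a difference that did not pass without E16.5 library 4 (0.29, adjusted p = 0.0968) or without P3 library 1 (0.34, adjusted p = 0.0749). Nor did it pass with median-of-ratios factors or equal library totals (both 0.23, adjusted p = 0.165 and 0.135). Kifc2, a kinesin gene that ends just beside Foxh1, was at 935 to 1047 normalized counts at E13.5 and 660 to 1111 at E16.5, ranges that overlapped, at 478 to 571 at P0 and at 212 to 312 at P3.

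The receptor genes moved little beside these. Acvr2b (ENSMUSG00000061393; chromosome 9, 119402118 to 119434995, plus strand), a type II receptor for NODAL and activins, was at 3218, 3157 and 3379 normalized counts at E13.5 and at 1288, 1235 and 1289 at E16.5. It stood at 2020, 1742 and 2039 at P0 and at 2736, 2500 and 2546 at P3, and no pair of stages overlapped. The log2 differences were −1.35 ± 0.08, 0.60 ± 0.08 and 0.43 ± 0.08 for the 3 consecutive steps (SE; limma, adjusted p = 6.64e-11, 4.32e-06 and 0.000102). The rise from P0 to P3 hung on the scaling, since it was −0.01 with median-of-ratios factors and −0.41 with equal library totals (adjusted p = 0.877 and 0.000132). An antisense gene within Acvr2b, Gm47320, had at most 2.11 normalized counts in any library. Acvr1b (ENSMUSG00000000532; chromosome 15, 101174067 to 101213684, plus strand), the type I receptor ALK4, was low throughout, at 74.9, 55.5 and 95.7 at E13.5, 50.6, 45.6 and 72.8 at E16.5, 47.0, 37.0 and 54.1 at P0, and 63.0, 57.0 and 63.8 at P3. It was the 1 gene of the 9 for which the test among stages did not pass (limma F-test, adjusted p = 0.153). Its difference between P0 and E13.5 passed (−0.68 ± 0.28 SE; limma, adjusted p = 0.0328), but not without E13.5 library 1 or 4 or P0 library 1 or 3 (adjusted p from 0.056 to 0.136), and it was 0.47 with equal library totals.

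Of the transducers, Smad2 (ENSMUSG00000024563; chromosome 18, 76241580 to 76310963, plus strand) was the more abundant at every stage. It held 10184, 9136 and 9193 normalized counts at E13.5, 5516, 5712 and 5199 at E16.5, 5493, 5558 and 5047 at P0, and 10109, 10397 and 10886 at P3. Levels at E16.5 and P0 overlapped, as did those at E13.5 and P3. Smad2 fell by 1.73-fold to E16.5 (log2 difference −0.79 ± 0.07) and rose by 1.95-fold from P0 to P3 (0.96 ± 0.07; SE; limma, adjusted p = 1.54e-08 and 1.67e-09). With equal library totals the step to P0 became a rise of 0.63 (adjusted p = 1.81e-07), with median-of-ratios factors one of 0.23 (adjusted p = 0.00659), and the step to P3 no longer passed with equal totals (adjusted p = 0.0702).

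Smad3 (ENSMUSG00000032402; chromosome 9, 63646767 to 63757994, minus strand) was at 444, 398 and 332 normalized counts at E13.5, 47.7, 72.5 and 76.8 at E16.5, 139, 111 and 100 at P0, and 190, 293 and 308 at P3. No stages overlapped, with E16.5 the lowest. The fall to E16.5 was 5.97-fold (log2 difference −2.58 ± 0.23), the rise to P0 1.79-fold (0.84 ± 0.23) and the rise to P3 2.21-fold (1.15 ± 0.23; SE; limma, adjusted p = 2.07e-08, 0.00467 and 0.000253). The last rise did not pass with equal library totals (adjusted p = 0.236). At P3 Smad3 remained below E13.5 by a log2 difference of −0.59 ± 0.23 (limma, adjusted p = 0.03), which did not pass without E13.5 library 1, E13.5 library 3 or P3 library 1 (adjusted p = 0.103, 0.0668 and 0.171).

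Counted over the 9 genes at a limma adjusted p under 0.05, 0 were higher and 8 lower at E16.5 than at E13.5, where 45.5% of all 22384 genes tested were higher and 34.6% lower. The members' median log2 difference was −3.27 there, against 0.31 over all genes. At P0 against E16.5, 3 were higher and 3 lower, against 27.6% and 33.4% of all genes, and with equal library totals 4 were higher and 2 lower. At P3 against P0, 4 were higher (Acvr2b, Smad2, Smad3 and Foxh1) and 3 lower (Tdgf1, Lefty1 and Lefty2), against 40.1% and 36.4%. That split was 3 higher and 4 lower with median-of-ratios factors and 1 and 5 with equal totals. Among stages the F-test passed for 8 of the 9, where it passed for 95.2% of all genes tested. Since most genes of the table differed between stages, the shares of members called after E16.5 are near those of all genes; in the first step no member rose.

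Within 1 genotype tag, all 9 genes were lower at P0 than at E13.5, where 40.5% of all genes were lower and 45.7% higher. With equal library totals 6 were lower and 2, Acvr2b and Smad2, higher. The log2 differences were −5.61 for Nodal, −3.32 for Tdgf1, −8.50 for Lefty1, −5.48 for Lefty2 and −5.64 for Foxh1. At P3 against E16.5, 4 genes were lower and 4 higher, against 35.2% and 34.2% of all genes. With median-of-ratios factors or equal totals 4 were lower and 3 higher, Foxh1 no longer passing. Nodal (−1.93), Tdgf1 (−2.87), Lefty1 (−4.02) and Lefty2 (−2.17) were the lower ones, and Smad3 (1.99), Acvr2b (1.03), Smad2 (0.93) and Foxh1 (0.41) the higher ones. Across the full interval, P3 against E13.5, 7 genes were lower and 0 higher, against 31.2% and 39.2% of all genes, and 1 was higher with TMM or median-of-ratios factors (7 lower) or equal totals (5 lower).

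Because transcripts differ in length, levels of different genes were compared as normalized counts per kilobase of merged exon. At E13.5 Lefty1 led with 15028 ± 1125 per kilobase (SD, n = 3), before Lefty2 with 10921 ± 114, Foxh1 with 2962 ± 78.1 and Nodal with 2044 ± 18.7. Smad2 (1082), Acvr2b (828), Tdgf1 (456), Smad3 (70.7) and Acvr1b (17.1) followed, and no neighbours in this order overlapped. At E16.5 Smad2 (624 per kilobase) and Acvr2b (323) had moved to the top. Nodal, Lefty2, Foxh1 and Lefty1 lay at 105 to 120 per kilobase and overlapped, before Tdgf1 (46.9) and the overlapping Acvr1b (12.7) and Smad3 (11.8). At P0 Lefty2, at 245 per kilobase, was exceeded only by Smad2 (611) and Acvr2b (492). Foxh1 (59.2), Tdgf1 (45.9), Nodal (43.2) and Lefty1 (41.2) followed, each overlapping with the next, before Smad3 (21.1) and Acvr1b (10.4). At P3 the intracellular and receptor genes led, with Smad2 at 1192, Acvr2b at 660, Foxh1 at 141 and Smad3 at 47.5 per kilobase. Smad3 overlapped with Nodal (30.9) and Nodal with Lefty2 (25.7), and below Acvr1b (13.9) lay the overlapping Tdgf1 (6.62) and Lefty1 (6.35).

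Ratios within a library do not depend on its size factor, and 2 of them were formed after the levels had been seen. Per kilobase, Lefty2 to Lefty1 was 0.780, 0.722 and 0.685 at E13.5 in libraries 1, 3 and 4, 1.06, 1.29 and 1.07 at E16.5, 4.91, 7.68 and 5.70 at P0, and 5.05, 2.59 and 6.83 at P3. Lefty1 was thus the more abundant at E13.5 and Lefty2 at P0 and P3, with no overlap between the fetal and the postnatal stages. The ratio of Lefty1 plus Lefty2 to Nodal was 12.03, 12.9 and 13.2 at E13.5, 1.83, 1.35 and 2.75 at E16.5, 5.04, 10.9 and 5.97 at P0, and 1.15, 1.33 and 0.768 at P3. It was highest at E13.5 and lowest at P3, P0 lay above both E16.5 and P3, and no stages overlapped. In an exact permutation test of the log2 ratio over the 15400 ways to divide the libraries into 4 stages of 3, p was 0.000714 for the first ratio and 6.49e-05, the smallest possible, for the second (adjusted over the 2 ratios, 0.000714 and 0.00013). The ratios were chosen from the levels of these same libraries, so these p-values are descriptive and cannot serve as support. Their adjustment does not cover the other ratios that could have been formed. Between any pair of stages 3 against 3 libraries cannot give an exact p under 0.1. From P0 to P3 the log2 of Lefty2 to Lefty1 changed by −0.42, but by −0.03 without P3 library 3 and by −1.08 with 10 added to each value, and Lefty1 had only 7 to 19 reads at P3.

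**Figure D3:**
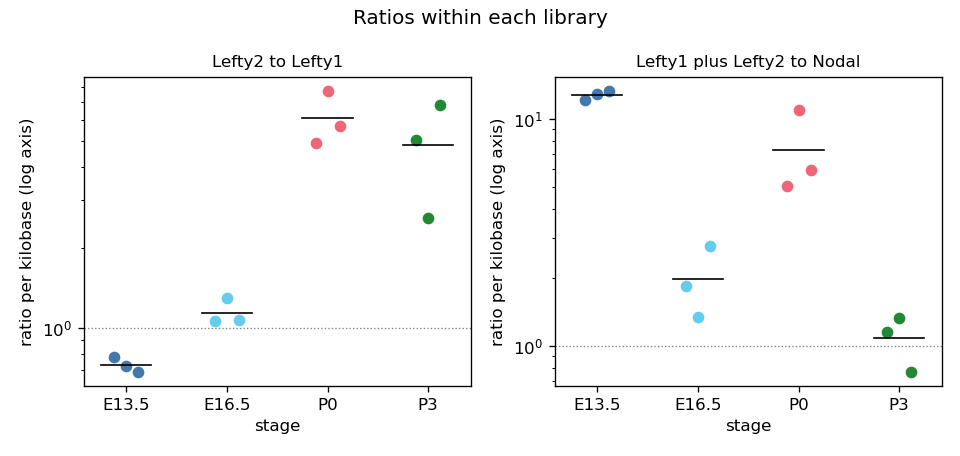
Ratio per kilobase of Lefty2 to Lefty1 (left) and of Lefty1 plus Lefty2 to Nodal (right) in each library (points) on log axes, with the mean of 3 libraries at each stage (bars) and a dotted line at a ratio of 1. The left ratio is under 0.78 at E13.5 and over 2.5 at P0 and P3, and the right one is over 12 at E13.5 and falls, rises and falls again.

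The other genes of the pathway were taken as 44 genes in 5 lists. Of these, 43 were tested, and Gdf1, a ligand that partners NODAL, was listed at 0 reads in every library. Its annotation overlaps Cers1 on the same strand, which had 21.6 to 74.4 normalized counts, and the authors' handling of reads in overlapping genes is not given. At E16.5 against E13.5, 12 of the 43 were higher and 27 lower (median log2 difference −0.90, all genes 0.31). Of all genes tested, 45.5% were higher and 34.6% lower there. For P0 against E16.5, 26 were higher and 11 lower, against 27.6% and 33.4% of all genes. At P3 against P0, 19 were higher and 17 lower, against 40.1% and 36.4%. These splits depended on the scaling, and with equal library totals they were 16 and 19, 35 and 1, and 12 and 25 in turn. Of the 23221 genes tested with equal totals, 12911, 12743 and 4577 were higher and 5506, 3443 and 13565 lower in these steps. The same all-gene shares are the background for the counts of the single lists below.

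Among 11 tested ligands and secreted regulators, 5 were higher and 5 lower at E16.5, 8 and 2 at P0, and 3 and 7 at P3, each against the stage before; with equal totals the first 2 splits were 6 and 2, and 9 and 0. Gdf3, a NODAL-related ligand that also signals through CRIPTO, stood at 2948 to 3224 normalized counts at E13.5, 311 to 346 at E16.5, 125 to 142 at P0 and 7.75 to 34.4 at P3. It fell by 9.37-fold to E16.5 (log2 difference −3.23 ± 0.32 SE; limma, adjusted p = 8.64e-08), and its stages were ordered as those of Lefty1. Dand5, a secreted NODAL antagonist, fell by 4.20-fold to E16.5 (−2.07 ± 0.26 SE; limma, adjusted p = 1.62e-06). Follistatin (Fst), which binds activins, was at 253 to 320 at E13.5 and at 3067 to 3416 at P3, having risen by 5.64-fold from P0 (2.49 ± 0.11 SE; limma, adjusted p = 2.78e-12). Inha, the inhibin alpha subunit that Sertoli cells make, was at 477 to 649 at E13.5, 1637 to 3604 at E16.5, 8256 to 15802 at P0 and 3393 to 4668 at P3. Inha and the Sertoli marker sums given above were both highest at P0. At P3 Inha stayed above E13.5, whereas the Sertoli sums at P3 (732 to 1238) overlapped those at E13.5 (650 to 970). The part of Sertoli cells in the Inha level was not tested. Inhbb, an activin subunit, was likewise highest at P0, at 448 to 829.

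Of 3 coreceptor and proconvertase genes, 1 was higher and 2 lower at E16.5 against E13.5 (1 and 1 with equal totals or median-of-ratios factors), 2 and 1 at P0 against E16.5 (2 and 0 with these scalings), and 0 and 2 at P3 against P0. Furin, a protease that cleaves the NODAL precursor, fell by 2.87-fold to E16.5 (log2 difference −1.52 ± 0.20 SE; limma, adjusted p = 3.26e-06). Cfc1 (CRYPTIC), the paralog of CRIPTO, had 2 to 5 reads at E13.5, 25 to 39 at E16.5, 17 to 32 at P0 and 0 in all 3 P3 libraries, and was thus low at E13.5, where Tdgf1 was highest. Of 6 other receptors, 1 was higher and 4 lower at E16.5, 4 and 0 at P0, and 3 and 2 at P3, each against the stage before. With equal totals the first split was 2 and 2 and the last 1 and 4, and with TMM or median-of-ratios factors the first was 2 and 4. Acvr1c (ALK7), the other type I receptor used by NODAL, was at or under 1 read at E13.5 and at most 36.4 normalized counts, at P0. Acvr2a ranged from 677 to 1258 over all libraries, and Tgfbr1, the receptor ALK5, rose by 2.40-fold from P0 to P3 (limma, adjusted p = 1.66e-08).

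The 14 intracellular partners and inhibitors split unevenly, with 1 higher and 12 lower at E16.5 against E13.5 and a median log2 difference of −1.43. At P0 against E16.5, 4 were higher and 8 lower, which became 5 and 5 with median-of-ratios factors and 9 and 1 with equal totals. At P3 against P0, 10 were higher and 2 lower (10 and 4, and 6 and 4, with these scalings). Smad4, the partner of SMAD2 and SMAD3, fell by 1.91-fold to E16.5 and rose by 2.29-fold from P0 to P3 (log2 differences −0.93 and 1.19, each ± 0.10 SE; limma, adjusted p = 1.48e-07 and 8.21e-09). Drap1, a corepressor that binds FOXH1, fell by 7.52-fold and rose by 5.65-fold over the same intervals (−2.91 and 2.50, each ± 0.10 SE; limma, adjusted p = 1.31e-13 and 1.35e-12). The SMAD corepressor Tgif1 fell by 4.96-fold and rose by 3.58-fold, and Ski by 3.04-fold and 3.65-fold. Smad7, the inhibitory SMAD, was at 600 to 669 normalized counts at E13.5, 155 to 182 at E16.5, 258 to 362 at P0 and 633 to 679 at P3. It fell by 3.73-fold to E16.5 (−1.90 ± 0.13 SE; limma, adjusted p = 9.14e-10) and rose by a log2 difference of 1.07 from P0 to P3 (adjusted p = 1.55e-06), a rise that did not pass with equal totals (0.23, adjusted p = 0.124). Ldlrad4, which holds SMAD2 and SMAD3 back from the receptor, went the other way in the first step and rose by 3.77-fold (1.92 ± 0.10 SE; limma, adjusted p = 3.46e-11).

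**Figure D4:**
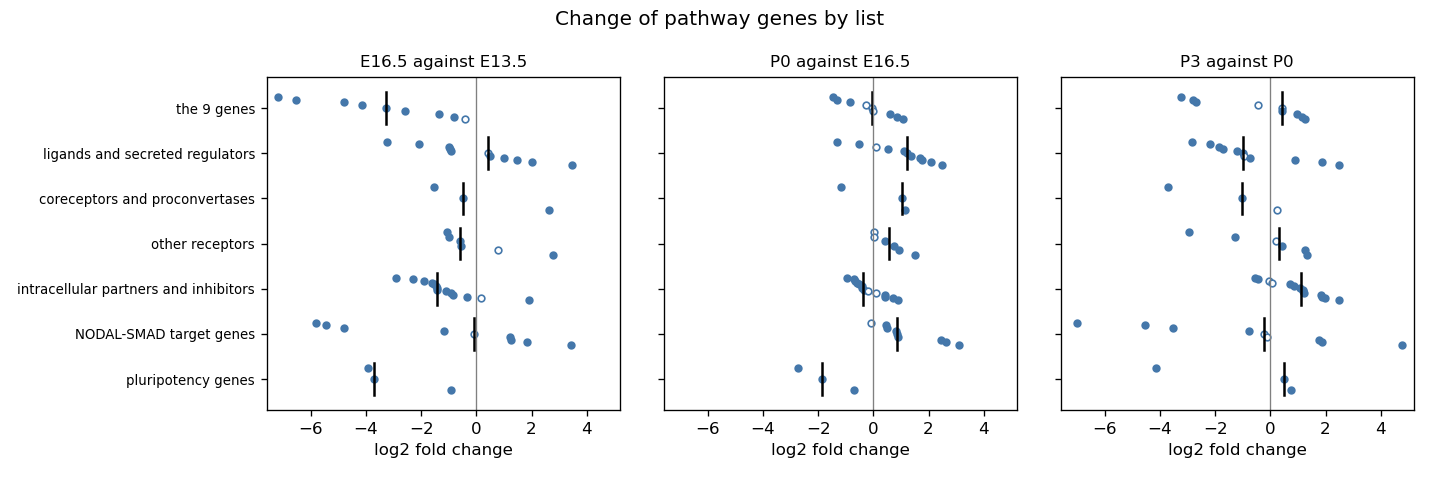
Log2 fold change of each tested gene (points) by list for the 3 consecutive comparisons, with the median of each list (vertical bars); filled points passed an adjusted p of 0.05 in limma and open points did not. In the step to E16.5 the medians of the 9 genes, of the intracellular partners and of the pluripotency genes lie at −3.27, −1.43 and −3.71.

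Of 9 genes known as NODAL-SMAD targets in the embryo, 4 were higher and 4 lower at E16.5 against E13.5 (5 and 3 with equal totals), 8 and 0 at P0 against E16.5, and 3 and 4 at P3 against P0. Otx2, a homeobox gene of the epiblast and forebrain, was at 1780 to 1891 at E13.5, 62.5 to 66.9 at E16.5 and 378 to 440 at P0, and had 0 to 10.1 normalized counts at P3, so that like Lefty2 it was higher at P0 than at E16.5 and lower at P3. Lhx1, a LIM homeobox gene, was at 3593 to 3873 at E13.5, 56.3 to 123 at E16.5 and 100 to 133 at P0, but at 3076 to 3220 at P3. It fell by 44.2-fold to E16.5 (−5.47 ± 0.19 SE; limma, adjusted p = 1.65e-13) and rose by 27.5-fold from P0 to P3 (4.78 ± 0.19 SE; limma, adjusted p = 1.4e-12). T (brachyury) rose by 10.9-fold and Mixl1 by 3.60-fold to E16.5, while Gsc rose by 2.41-fold there and by 3.70-fold from P0 to P3. The endodermal factor Sox17 was at 193 to 223 at P0 and at 4.05 to 35.6 at the other stages.

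The 3 pluripotency genes were all lower at E16.5 than at E13.5, and all lower at P0 than at E16.5. Nanog fell by 15.3-fold and Sox2 by 13.1-fold to E16.5 (log2 differences −3.94 ± 0.21 and −3.71 ± 0.15 SE), while Pou5f1 fell by 1.87-fold there (−0.91 ± 0.06) and by 6.72-fold to P0 (−2.75 ± 0.06; limma, adjusted p = 3.22e-11, 9.69e-13, 1.09e-09 and 5.7e-14). Sox2 fell by 1.64-fold to P0, which did not pass with equal totals (−0.06, adjusted p = 0.762). At P3 Nanog had 2 or 3 reads per library, and Pou5f1 was at 1754 to 1853 normalized counts. For P3 against P0 2 of the 3 were higher and 1 lower, which became 1 and 1 with TMM or median-of-ratios factors and 0 and 1 with equal totals.

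The genes whose course was most like that of a member were sought among 13644 genes by Pearson correlation of log2(normalized count + 1) over the 12 libraries, which share stage, size factor and depth. For Nodal they were Sfxn1 (r = 0.991), Ring1 (0.989) and Peg3 (0.988). Tdgf1 was followed by Lgals9 (0.998), Siglecf (0.988) and Pdlim3 (0.987). For Lefty1 they were Sfxn1, Eif4b and Cthrc1 (each 0.992). Lgals9, the gene of galectin 9, had mean levels of 449, 96.8, 85.7 and 25.6 normalized counts at the 4 stages. Like Tdgf1 it was flat between E16.5 and P0 with the deposited scaling, a likeness that the choice by correlation builds in. With equal library totals 3 of the 3 genes named for Tdgf1 were found again, 1 of the 3 for Lefty1 and 0 of the 3 for Nodal. In these bulk samples, fewer cells with a transcript and less of it per cell cannot be told apart.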

How the data were processed

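The authors deposited 1 table of 55487 genes by 12 libraries, whose signal is a read count divided by 1 size factor per library (RLE, per the file's name). The submitters' processing notes name bcl2fastq 2.20, cutadapt 1.18, HISAT2 2.1.0, featureCounts 1.5.2, DESeq2 1.26.0 and the builds mm10 and GRCm38. Per the labels' protocols, SMART-seq v4 and TruSeq mRNA kits were used for the libraries, from RNA purified with a kit for small amounts. Strand setting and the handling of multi-matching reads are not given in the sources used here. Whole reads were recovered by dividing by each library's step, within a tolerance of 0.001.

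Columns carry stage and the numbers 1, 3 and 4, which differ from the titles' replicate numbers, so each was assigned to its stage only. Replicates differed by more than sampling noise in every pair.

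The test was limma 3.58.1 (R 4.3.3; lmFit, eBayes with trend) on log2(normalized count + 1). It covered the 22384 genes that reached 10 normalized counts in 3 or more libraries, with all 4 stages in 1 fit, with Benjamini-Hochberg adjustment over all genes and a threshold of 0.05. Fold changes on this scale understate those of low genes. The members and lists, and the rule that the text names members, list genes, Morc1 and the 3 genes most like Nodal, Tdgf1 and Lefty1, were chosen with earlier results of these data known; Kifc2, Gm47320 and Cers1 were named after their values were seen. A gene of the target list and a sequence are not reported here. Alternatives were TMM, median-of-ratios and equal-total scaling, pseudocounts of 0.1 and 10, filters, a 2-stage fit, leaving out each library, a replicate block, edgeR 4.0.16 and DESeq2 1.42.0 on recovered reads. A simulated table tested the fit. Symbols matched 55141 identifiers. Positions and lengths came from GENCODE M21 on GRCm38 and promoters from RefSeq (GRCm38.p6). Counts of reads without molecular identifiers cover counting error only. Other steps used Python 3.11.15 with scipy 1.17.1, matplotlib 3.10.9, pandas 2.3.3 and numpy 2.4.6.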

Additional observations from a re-analysis of the deposited data

How the results depend on the processing

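Of the 54 differences between stages (9 genes in 6 comparisons), 54 kept direction and call with edgeR, with DESeq2, with pseudocounts of 0.1 or 10 and without a filter, and 48 with a mean of at least 100, which left Acvr1b untested. With TMM factors 51 did, with median-of-ratios factors 48 and with equal library totals 41. A difference that passed under neither setting compared was counted as kept, whatever its direction. The turns of direction given next therefore cover only differences that passed under at least 1 setting. Direction turned with equal totals for P0 against E13.5 in Acvr1b (0.47), Acvr2b (0.42) and Smad2 (0.35), for P3 against P0 in Acvr2b (−0.41), for P3 against E13.5 in Acvr2b (0.0022) and for P0 against E16.5 in Smad2 (0.63). With median-of-ratios factors it turned for Acvr2b, P3 against P0 (−0.014), and Smad2, P0 against E16.5 (0.23). Equal totals move the median of all genes to 0.836, 0.681 and −0.858 in the 3 consecutive steps, from 0.309, −0.0102 and 0.0474. A log2 difference of at least 1 left 3 and not 6 genes changed for P0 against E16.5.

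Leaving out 1 library gave 8 genes changed for E16.5 against E13.5, 6 for P0 against E16.5, 7 to 8 for P3 against P0, 8 to 9 for P0 against E13.5, 7 to 8 for P3 against E16.5 and 6 to 7 for P3 against E13.5. The fit of 2 stages lost Smad3 in P3 against E13.5 (adjusted p = 0.0614) and Foxh1 in P3 against E16.5 (adjusted p = 0.0703). The replicate block by column number left the counts of changed genes at 8, 6, 7, 9, 8 and 7 and changed none of the 54 calls; same-numbered libraries share only a number, with deviations correlated between −0.036 and 0.042 in 18 pairs. With the longest transcript in place of merged exons, 9 genes kept their rank per kilobase at E13.5 and P3, 3 at E16.5 and 5 at P0. Of the genes named as most like, Spearman correlation gave again 0 for Nodal, 1 for Tdgf1 and 0 for Lefty1. Depth limits Lefty1 and Tdgf1 at P3, where 7 to 29 reads lie behind each value.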
